A study of Mus musculus with 10 samples.

Results

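Syndecans and glypicans are the cell-surface proteins that carry heparan sulfate, and 8 of their genes were followed among the 15899 genes of the deposited matrix: the syndecans Sdc1, Sdc2, Sdc3 and Sdc4 and the glypicans Gpc1, Gpc2, Gpc4 and Gpc6. They were found in the matrix by their gene names. The RNA had been pulled down with an anti-FLAG antibody (RNA immunoprecipitation followed by sequencing, RIP-seq) from neural stem cell (NSC) cultures grown as neurospheres from the subependymal zone (SEZ) of mouse brains, for which the labels give an age of 10 weeks. In the FLAG group both copies of Mex3a, which encodes an RNA-binding protein with KH domains, carried a FLAG tag at the end of the coding sequence (Mex3aFLAG/FLAG), so that the endogenous protein was precipitated. The WT group came from the same background without the tag (Mex3a+/+), and its RNA gave the nonspecific background of the pulldown. Both groups received EGF and FGF. Formaldehyde crosslinking preceded the precipitation in 2 FLAG and 2 WT libraries, while 3 FLAG and 3 WT libraries were native, from cells that had not been crosslinked. The methods call the replicates of each genotype biological, but neither they nor the labels say whether crosslinked and native libraries of the same number came from the same culture, in which case the 5 libraries of a genotype are not all independent. RNA of the lysates before precipitation was not analysed here, so more MEX3A-bound RNA and more of that RNA in the culture cannot be told apart, and neither can fewer cells of a type and less RNA per cell.

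Syndecans span the membrane and have short cytoplasmic tails that bind PDZ proteins, whereas glypicans are held to the outer leaflet by a glycosylphosphatidylinositol anchor. The heparan sulfate chains of both bind growth factors such as FGF2 and present them to their receptors, and FGF2 is one of the mitogens on which adult NSCs are cultured. MEX3 proteins bind sequences in the 3′ UTR of mRNAs and are known as post-transcriptional regulators.

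The values were deposited on a log2 scale with nearly the same distribution in every library, and the depth of each single library is not given. FLAG native replicates 1 and 3 had 329 and 178 genes tied at their lowest value, against at most 3 in the other libraries, as a low number of reads would give, although the number itself is not known. All 9 markers of neural stem and progenitor cells were in the matrix, 8 of them above its median gene, and the highest was Egfr, with a mean log2 value of 10.46. Of the markers of other cells, 3 of 5 neuronal, 2 of 5 oligodendrocyte, 2 of 5 endothelial and 3 of 5 microglial genes were present, and 2, 1, 0 and 2 of these lay above the median gene, whose mean log2 value was 2.84. They were Gad1 (4.61) and Rbfox3 (3.87) of neurons, Cnp (4.65) of oligodendrocytes, and Cx3cr1 (4.18) and P2ry12 (3.71) of microglia. Dcx, Tubb3, Mbp, Mog and Mag were not among the genes of the matrix. Mex3a mRNA itself had a log2 value of 4.04 ± 0.17 (SD, n = 2) in crosslinked FLAG and 2.89 ± 0.19 (n = 2) in crosslinked WT libraries, and of 5.36 ± 1.15 (n = 3) in native FLAG and 3.25 ± 0.32 (n = 3) in native WT libraries.

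The sequences shown first are those in which MEX3 binding could be looked for. The MEX-3 recognition element (MRE) of C. elegans has an upstream and a downstream part of 4 bases each, separated by up to 8 bases, and it was searched by its letters on the RNA strand of each gene, in its longest annotated 3′ UTR (GENCODE M21 on GRCm38). Overlapping matches were kept. Sdc4, the member with the largest difference between FLAG and WT, had 7 matches in a 3′ UTR of 1839 bases, and all are given here in their order after the stop codon. Capitals mark the match from the first base of the upstream part to the last base of the downstream part, with 6 bases on each side.
Sdc4 site at chr2:164425737-164425758, minus strand: tccagaATAGAATATAggacca
Sdc4 site at chr2:164425726-164425751, minus strand: tagaatATAGGACCAGTTTAgatcct
Sdc4 site at chr2:164425223-164425250, minus strand: agagttGGAGATATGATTTTTAtgattt
Sdc4 site at chr2:164424953-164424977, minus strand: agaagaATAGATAAATATAtttttt
Sdc4 site at chr2:164424938-164424959, minus strand: atttttTTAGGCTATAgaatga
Sdc4 site at chr2:164424813-164424835, minus strand: tgagctAGAGTAGTTTAgggtcc
Sdc4 site at chr2:164424813-164424832, minus strand: gctagaGTAGTTTAgggtcc

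The first pair of Sdc4 matches overlapped, and so did the last pair, whose matches end on the same base. Sdc3, the member with the next largest difference, had 3 matches in a 3′ UTR of 3510 bases, the last of them starting 1525 bases after the stop codon.
Sdc3 site at chr4:130823422-130823446, plus strand: ggtaagTGAGGCCAGTCTAgcatcc
Sdc3 site at chr4:130823766-130823789, plus strand: tcccccAGAGTCACTCTAttccac
Sdc3 site at chr4:130824328-130824350, plus strand: tatttcAGAGGTATTTAaaatgt

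Sdc2, whose FLAG libraries did not lie above WT, had 8 matches in 2395 bases, and its first and last are shown for comparison with those of Sdc4.
Sdc2 site at chr15:33032544-33032567, plus strand: tcccatTTAGTGTCTCTAtttagg
Sdc2 site at chr15:33034768-33034792, plus strand: ctctgcTTAGTGTGGTTTAaaaaaa

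A letter match was common in 3′ UTRs, being present in 77.2% of 12108 coding genes of the matrix. For Sdc4, 7 matches stood against a median of 5 in the 1906 genes with a 3′ UTR of similar length (within 20%), 27.2% of which had at least as many. For Sdc3, 3 matches stood against a median of 9, and 96.4% of the genes of similar length had at least as many. The 3′ UTR of Sdc3 was rich in G and C, at 55.9% against a median of 42.9% in those genes, whereas that of Sdc4 had 46.5% against 43.7%. Sdc2 (8 against a median of 6) was on the side of Sdc4, and Sdc1 (2 against 5), Gpc1 (1 against 6), Gpc6 (2 against 3) and Gpc4 (0 against 1) lay below their medians. Gpc2 had 1 match, equal to its median. The MRE is written with another ending elsewhere in the study, and with that ending the counts were 3 for Sdc4, 6 for Sdc3, 7 for Sdc2, 4 for Gpc2, 3 for Gpc6, 1 each for Sdc1 and Gpc1, and 0 for Gpc4. Sdc4 was then below the median of 4, so its place among genes of similar length depended on the ending. Gpc4 had no match by either ending in its 500 bases. The number of matches therefore did not order the members as their FLAG over WT values did, and a match of letters is not evidence of binding.

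**Figure D1:**
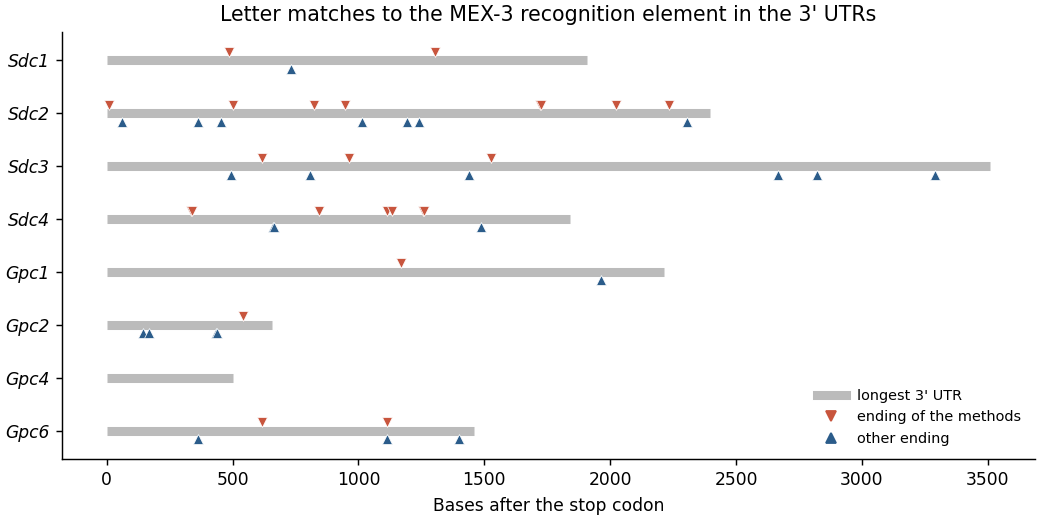
Positions of letter matches to the MRE along the longest 3′ UTR (grey bars) of each member, in bases after the stop codon. Red markers above the bars use the ending given in the methods of the study and blue markers below use the other ending; markers of overlapping matches cover each other. Sdc2 and Sdc4 carry 8 and 7 red markers and Gpc4 carries none.

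The members were detected at very different levels, which were compared between genes only after division by the length of the exons (log2 value per kb). Gpc6 was by far the highest, with a mean over the WT libraries of 6.79 ± 0.14 (SD, n = 5), and its mean over all libraries, 6.69, lay at percentile 99.3 of the 12276 coding genes with a length. On the same per-kb scale Sdc2 followed in WT with 3.72 ± 0.10, Gpc4 with 3.32 ± 0.38 and Sdc3 with 3.19 ± 0.28. Sdc4 had 1.88 ± 0.52 and Gpc1 1.76 ± 0.34, Gpc2 0.82 ± 0.86 and Sdc1 −0.45 ± 0.27. Gpc4 and Sdc3 differed by less than their SDs, and so did Sdc4 and Gpc1, whereas Gpc6 stood clear of all others. The highest members, Gpc6, Sdc2 and Gpc4, are also those whose exons cover the smallest part of the gene (0.611%, 3.09% and 2.36%). Whether reads from introns add to their values was not tested, so this order may not be one of mature mRNA. The median coding gene had 1.21 per kb, so Sdc1 and Gpc2 were the only members whose WT mean lay under it. Sdc4 stood in the lower part of this order in WT, and over the FLAG libraries its values on the per-kb scale reached 4.40.

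**Figure D2:**
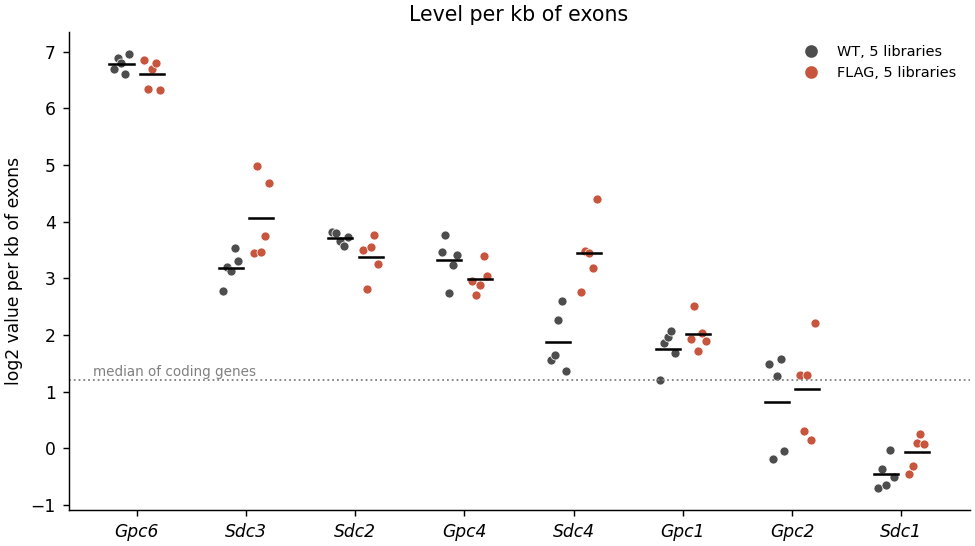
Log2 value per kb of exons of each member in the 5 WT (grey) and 5 FLAG (red) libraries of both protocols, with the mean as a black line and the median of coding genes as a dotted line. Gpc6 lies above 6.3 in every library, Sdc1 lies under the dotted line in every library, and Sdc4 and Sdc3 have the widest separation of FLAG from WT.

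FLAG over WT asks which RNAs were recovered with tagged MEX3A beyond the nonspecific background. Sdc4 and Sdc3 were the only members whose FLAG libraries all lay above all WT libraries in both protocols, and no member lay below in both. Sdc4 was 2.97-fold higher in FLAG over all libraries and Sdc3 1.83-fold higher, the other 2 syndecans and the 4 glypicans lay between 0.790 and 1.30-fold, and no member passed the adjusted threshold. A pattern like that of Sdc4 and Sdc3 was found in 4.84% of all genes, and the opposite one, with every FLAG library below in both protocols, in 4.47%. A gene was called when its adjusted p (limma, Benjamini-Hochberg over all 15899 genes) was under 0.05 and its log2 fold change over 0.58 in size. Both Sdc4 and Sdc3 are in the list of MEX3A-bound transcripts that the study selected on these same libraries, and that listing is not independent evidence for their direction. The study used the same thresholds, asked for them with both protocols and fitted read counts with DESeq2. In the limma fits of the deposited values neither gene met them with either protocol. The adjusted p with crosslinking and in native conditions was 0.573 and 0.179 for Sdc4 and 0.565 and 0.232 for Sdc3.

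Sdc4 encodes syndecan-4, the syndecan found in focal adhesions, where its tail binds protein kinase C alpha. The gene lies on the minus strand at chr2:164424247-164443887 (GRCm38). Its log2 values were 4.10 and 4.80 in crosslinked FLAG libraries 1 and 2 against 2.91 and 3.61 in crosslinked WT libraries 1 and 2. In native conditions they were 4.83, 4.53 and 5.75 in FLAG libraries 1 to 3 against 2.99, 3.94 and 2.71 in WT libraries 1 to 3. The lowest FLAG value of all, 4.10, was above the highest WT value, 3.94, so the 5 FLAG and 5 WT libraries did not overlap even across protocols. How many of all genes have this wider separation was not counted. Separation within both protocols was found in 4.84% of them. FLAG over WT was 1.19 (log2, SE 0.36) with crosslinking and 1.82 (SE 0.40) in native conditions, or 2.28-fold (95% interval 1.15 to 4.52) and 3.54-fold (1.89 to 6.61). Over all libraries, in a model that also held the protocol, it was 1.57 (SE 0.31), 2.97-fold (1.84 to 4.79), with an adjusted p of 0.0580 in limma and the 116th smallest p of all genes. Sdc4 was the single member over 0.58 with both protocols, as were 4.16% of all genes.

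Sdc3 encodes syndecan-3, the syndecan most associated with neural tissue. It lies on the plus strand at chr4:130792537-130826319. Its log2 values were 6.02 and 6.05 in the crosslinked FLAG libraries against 5.35 and 5.71 in the crosslinked WT libraries. In native conditions FLAG libraries 1 to 3 had 7.56, 6.32 and 7.27 and WT libraries 1 to 3 had 5.79, 6.13 and 5.90. The groups did not overlap within a protocol, but FLAG native replicate 2 was only a little above the highest native WT library, and the crosslinked FLAG libraries lay under that WT library. FLAG over WT was 0.51 (log2, SE 0.15) with crosslinking, 1.12 (SE 0.30) in native conditions and 0.87 (SE 0.22; adjusted p = 0.103, limma) over all libraries, which corresponded to 1.83-fold (95% interval 1.30 to 2.58). Without WT crosslinked replicate 1 the crosslinked value was 0.33.

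The native difference of Sdc3 was largest in the libraries with many tied genes. FLAG native replicates 1 and 3 exceeded the native WT mean by 1.62 and 1.33 (log2) and FLAG native replicate 2 by 0.39. For Sdc4 the same differences were 1.62, 2.53 and 1.32, and the crosslinked FLAG libraries exceeded the crosslinked WT mean by 0.84 and 1.54. FLAG crosslinked replicate 1 (4.10) was, however, only a little above the highest WT library (3.94, native replicate 2). Without FLAG native replicates 1 and 3 the all-library value was 0.45 for Sdc3 and 1.25 for Sdc4, neither called. Mex3a mRNA split in the same way, with log2 values of 5.95 and 6.10 in FLAG native replicates 1 and 3 and 4.03 in replicate 2, beside 3.92 and 4.16 in the crosslinked FLAG libraries. Without FLAG native replicate 2, in contrast, the native comparison called Sdc3 (1.48, adjusted p = 0.00438, limma) and Sdc4 (2.08, adjusted p = 0.0148) higher and Sdc2 lower (−0.67, adjusted p = 0.0374). In that fit 1450 genes in all were called higher and 1710 lower, against 0 and 17 with every native library. The all-library fit without FLAG native replicate 2 called Sdc3 (1.04, adjusted p = 0.0249) and Sdc4 (1.67, adjusted p = 0.0287), among 516 genes called higher and 186 lower. Without WT crosslinked replicate 2 it called Sdc4 (1.74, adjusted p = 0.0269), among 182 higher and 219 lower, against 42 and 37 with every library. The part of depth or of the Mex3a level in these values was not tested. With genotype and replicate number as a random block across the protocols, the all-library value was 1.66 for Sdc4 (adjusted p = 0.111, limma) and 0.90 for Sdc3 (adjusted p = 0.196), and 7 genes were called higher and 8 lower.

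The remaining syndecans differed in opposite directions and did not pass the test. Sdc1 encodes syndecan-1, best known from epithelial and plasma cells, and lies at chr12:8771323-8793715 on the plus strand. It had log2 values of 1.48 and 2.02 in crosslinked FLAG against 1.23 and 1.29 in crosslinked WT, and of 1.62, 2.19 and 2.01 in native FLAG against 1.57, 1.90 and 1.43 in native WT libraries. The crosslinked groups did not overlap and the native ones did, but how many genes are separated in the crosslinked groups alone was not counted. The all-library value was 0.38 (SE 0.19; adjusted p = 0.263, limma). With a pseudocount of 8 it fell to 0.11, as the values of Sdc1 were low. Sdc2 encodes syndecan-2, which has a role in dendritic spines, and lies at chr15:32920723-33034935 on the plus strand. It had 5.32 and 5.37 in crosslinked FLAG against 5.64 and 5.47 in crosslinked WT, and 4.63, 5.59 and 5.07 in native FLAG against 5.62, 5.39 and 5.54 in native WT libraries. Its crosslinked FLAG libraries lay below WT, and of its native FLAG libraries replicate 2 lay within the WT range and the other two below it, giving −0.34 (SE 0.16; adjusted p = 0.255) over all libraries and −0.20 without FLAG native replicate 1. Across the 10 libraries the values of Sdc2 and Sdc3 ran opposite to each other, with Pearson's r = −0.90 as a description over libraries of both genotypes and protocols.

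**Figure D3:**
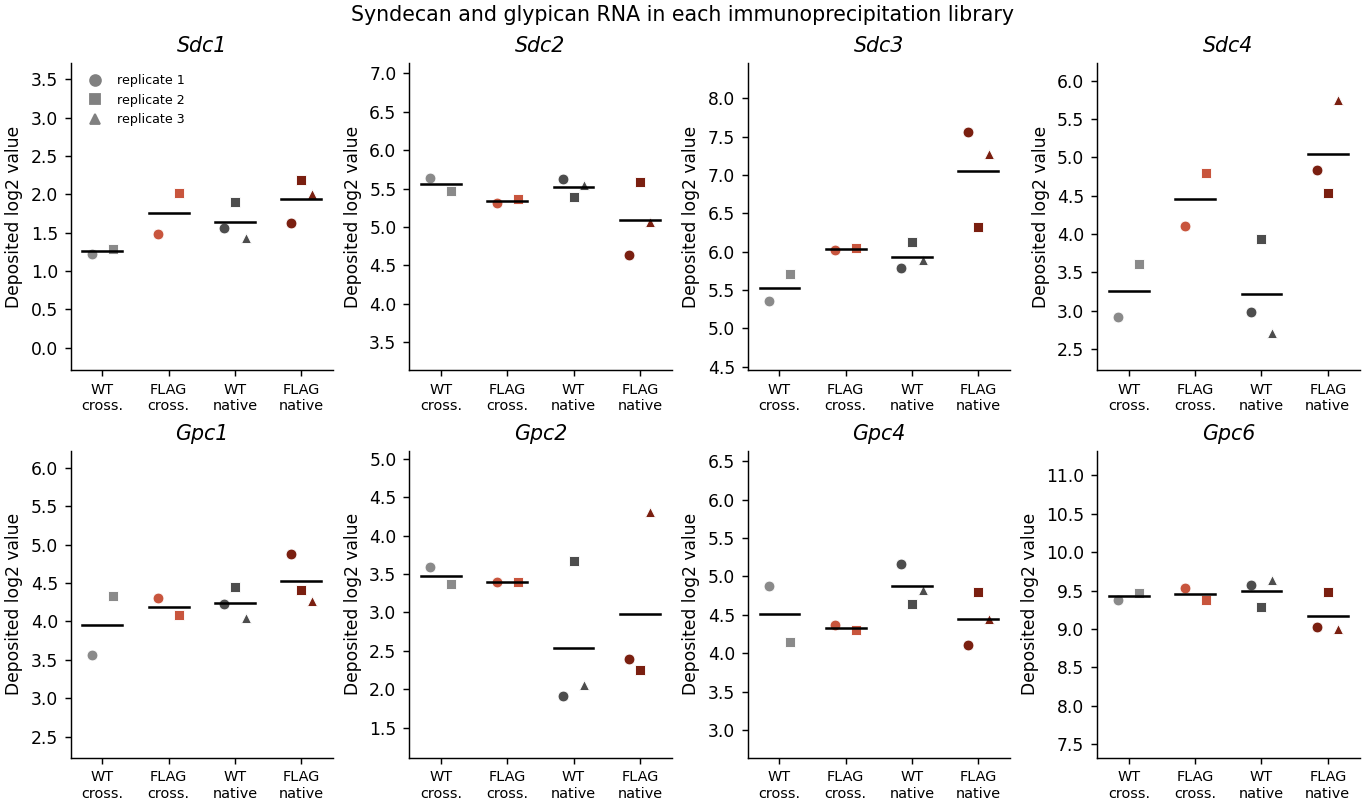
Deposited log2 value of each member in every library by genotype and protocol (cross., crosslinked), with the group mean as a line and replicate numbers by shape; each panel spans 4 log2 units. FLAG lies above WT without overlap in both protocols for Sdc3 and Sdc4, and Gpc2 has the widest scatter within its native groups.

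Among the glypicans, none was separated between FLAG and WT in either protocol. Gpc1 encodes glypican-1, the main glypican of the brain and a partner of FGF2 and Slit proteins, at chr1:92831645-92860779 on the plus strand. Its log2 values ranged from 4.08 to 4.88 over the FLAG and from 3.57 to 4.45 over the WT libraries, with 0.27 (SE 0.17; adjusted p = 0.366, limma) over all libraries, 0.15 without WT crosslinked replicate 1 and 0.17 without FLAG native replicate 1. Gpc4 encodes glypican-4, which is known as an astrocyte-secreted factor in synapse formation, at chrX:52053021-52165252 on the minus strand. It ranged from 4.11 to 4.79 in FLAG and from 4.14 to 5.16 in WT, with −0.32 (SE 0.18; adjusted p = 0.309). Gpc6 encodes glypican-6, a relative of glypican-4 with the same known role in astrocytes, at chr14:116925315-117976544 on the plus strand. Its crosslinked FLAG values, 9.53 and 9.37, were at the level of crosslinked WT, 9.37 and 9.47, with a difference of 0.03 (95% interval −0.29 to 0.34). In native conditions FLAG replicates 1 and 3 (neither above 9.03) lay under the WT libraries (9.57, 9.29 and 9.64) and FLAG replicate 2 (9.49) did not. The all-library value of Gpc6 was −0.19 (SE 0.13; adjusted p = 0.396), and −0.12 without FLAG native replicate 3.

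Gpc2 encodes glypican-2, a glypican of developing neurons, at chr5:138273655-138280005 on the minus strand. Its log2 values were 3.40 and 3.39 in crosslinked FLAG against 3.59 and 3.37 in crosslinked WT, but 2.40, 2.25 and 4.31 in native FLAG against 1.91, 3.67 and 2.05 in native WT libraries. One library of each native group was thus far above the other two. The pooled SD within groups was 0.87 for Gpc2, at percentile 93.5 of all genes, against 0.59 for Sdc4, 0.40 for Sdc3, 0.20 for Gpc6 and a median of 0.34. FLAG over WT of Gpc2 was 0.23 (SE 0.43; adjusted p = 0.754, limma), and its 95% interval, −0.73 to 1.19, covers changes larger than the value for Sdc3. Without FLAG native replicate 3 it was −0.16, and with each other library left out it lay between 0.031 (without WT native replicate 1) and 0.51 (without WT native replicate 2).

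Of the 8 members, 4 (Sdc1, Sdc3, Sdc4 and Gpc1) had a positive difference with both protocols, against 33.1% of all genes. No member was called in any comparison. With crosslinking no gene of the matrix was called, 0% in either direction, and 1 member, Sdc4, was over 0.58 at an unadjusted p under 0.05 in limma, as were 2.78% of genes (0.987% were lower by the same rule, none of them members). In native conditions 0% of genes were called higher and 0.107% lower, and Sdc3 and Sdc4 met the unadjusted rule, as did 7.77% of genes (7.06% were lower, with no member). Over all libraries 0.264% of genes were called higher and 0.233% lower, and the same pair met the unadjusted rule, as did 7.24% of genes (5.28% were lower, with no member). The median all-library log2 fold change was 0.63 for the 4 syndecans, 0.02 for the 4 glypicans and −0.03 for all genes.

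**Figure D4:**
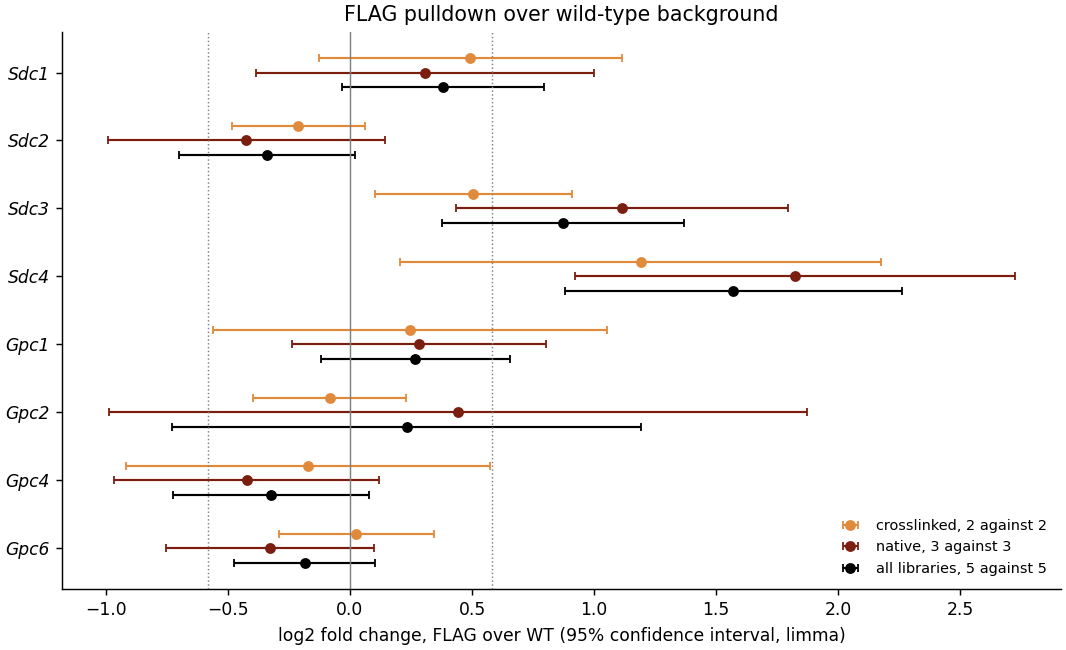
Log2 fold change of FLAG over WT with 95% confidence intervals from limma for each member with crosslinking (orange), in native conditions (dark red) and over all libraries (black); dotted lines mark 0.58 in either direction. The all-library values run from −0.34 for Sdc2 to 1.57 for Sdc4, and the intervals of Sdc3 and Sdc4 lie above 0 in all 3 comparisons before adjustment over genes.

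The difference of FLAG over WT between native and crosslinked conditions was tested in a fit of the 4 groups, which called 0% of genes. Sdc4 had a difference of 0.63 (log2, SE 0.64; 95% interval −0.79 to 2.06) and Sdc3 of 0.61 (SE 0.44; −0.37 to 1.59), each with an adjusted p of 0.970 in limma. The values of Sdc3 and Sdc4 were thus larger in native conditions by an amount that the spread could give, and the intervals do not exclude a sizeable difference. With single libraries left out the difference ran from 0.28 to 1.00 for Sdc4 and from 0.36 to 0.97 for Sdc3. Without FLAG native replicates 1 and 3 the difference was 0.13 for Sdc4 and −0.12 for Sdc3. In the WT background alone, native over crosslinked, 0.0126% of genes were called higher and 0.0252% lower (2 and 4 genes), with no member. The replicate number as a block raised these counts to 115 and 27 genes, still with no member. Without the block, Sdc3 had 0.41 (SE 0.16; adjusted p = 0.457, limma) and Gpc2 −0.94 (SE 0.54; adjusted p = 0.559) in that comparison.

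The members with negative all-library values shared a property of their genes. Exons cover 3.09% of the gene body of Sdc2, 2.36% of Gpc4 and 0.611% of Gpc6, against 13.0% of Sdc4, 17.0% of Sdc1, 17.7% of both Sdc3 and Gpc1 and 67.3% of Gpc2, with a median of 16.9% over coding genes. The 3 members with an exonic share under 5% were the 3 with negative all-library values, and the 5 others were positive. With crosslinking alone the split was not complete, as Gpc6 had 0.03 and Gpc2 −0.08. Gpc2 also turned to −0.16 over all libraries without FLAG native replicate 3. The other glypicans of the matrix, Gpc3 (share 0.788%, log2 fold change −0.56) and Gpc5 (0.311%, −0.31), which were looked up after the values had been seen, also fell on that side and did not pass the test (adjusted p = 0.429 and 0.487, limma). This division was not particular to the family. Of 1653 coding genes with a share under 5%, 75.7% had a negative value (median −0.22), against 45.3% of 10623 other coding genes (median 0.04), and the Spearman correlation of the share with the all-library value across 12276 genes, which share the libraries, was 0.41. It was 0.44 in native conditions and 0.20 with crosslinking.

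When the trend on the exonic share was removed from each library, a step added after seeing the data, the all-library log2 values became −0.11 for Sdc2, −0.09 for Gpc4 and 0.04 for Gpc6, and that of Gpc2, the member with the highest share, −0.016. The values of Sdc4 (1.61), Sdc3 (0.86), Sdc1 (0.37) and Gpc1 (0.25) changed little. What gives rise to the trend was not tested.

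**Figure D5:**
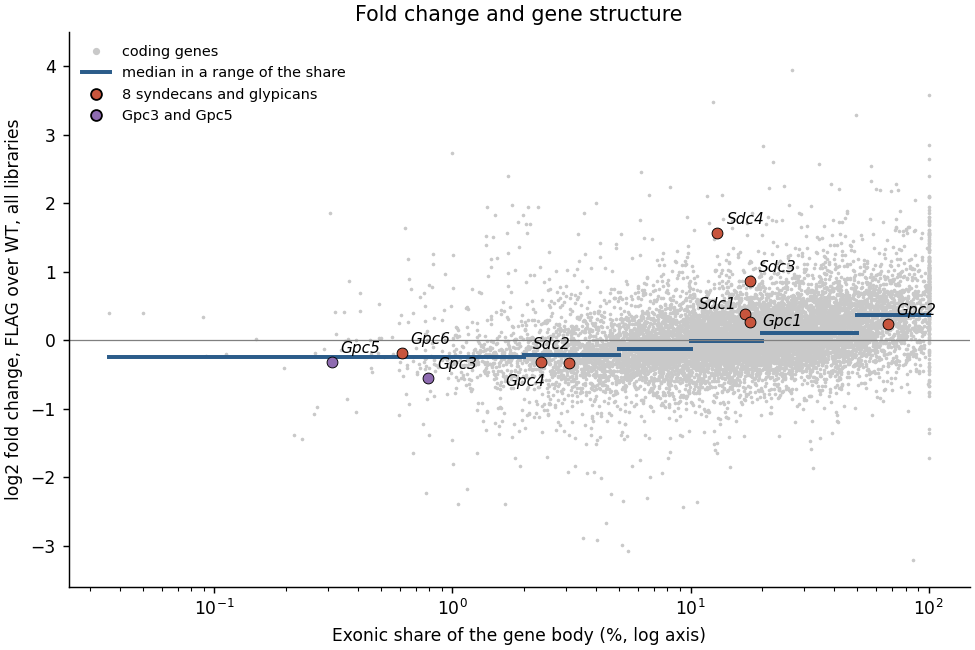
All-library log2 fold change of FLAG over WT against the exonic share of the gene body (log axis) for coding genes (grey), with the median in 6 ranges of the share in blue. Sdc2, Gpc4, Gpc6, Gpc3 and Gpc5 lie under 0 at shares below 5%, where the medians are also negative, and Sdc4 and Sdc3 lie far above the median of their range.

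Reads of 3 members could be shared with overlapping genes. Gpc2 shares 2376 of its 4274 exon bases with Gm43720 on the same strand, and the values of Gm43720 followed those of Gpc2 to within 0.49 in every library. These genes cannot be told apart here. The partners of Sdc3 and Gpc1 lie on the opposite strand, and the strand setting of the counting is not stated. Sdc3 shares 463 of its 5989 exon bases with Gm12970 and the antisense RNA Gm26716. All 415 exon bases of Gm26716 lie within exons of Sdc3, so reads counted for it could be reads of Sdc3. Its log2 values ran with those of Sdc3 (Pearson's r = 0.97 over the 10 libraries) and differed by 1.16 between FLAG and WT (SE 0.22; adjusted p = 0.0512, limma). Gpc1 shares 977 of its 5159 exon bases with Ankmy1, which had an all-library value of 0.19. No exon of another gene overlaps Sdc1, Sdc2, Sdc4, Gpc4 or Gpc6.

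The genes whose pattern over the 10 libraries was most like that of Sdc4 were Adipor1 (Pearson's r = 0.98), Eif5a2 (0.97) and Hmbox1 (0.97). For Sdc3 they were St13 (0.99), Selenof (0.99) and Anp32e (0.98). Within the family the values of Sdc3 and Sdc4 correlated with r = 0.79, which made Sdc3 the 835th most like gene of Sdc4.

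Genes that make, modify, shed or use the heparan sulfate of these proteins were listed in 7 groups, and 79 of the 91 genes were in the matrix. Over all libraries 1 of the 79 was called higher and none lower (0.264% and 0.233% of all genes). By the unadjusted rule 10 were higher and 3 lower, beside 7.24% and 5.28% of all genes. The called gene was Mmp14, a membrane-bound metalloproteinase that can cleave syndecan-1, with a log2 fold change of 1.30 (SE 0.22; adjusted p = 0.0374, limma) and no overlap of FLAG with WT in either protocol. The call was lost with the replicate number as a block (adjusted p = 0.104), with genotype and number as a random block (1.33, adjusted p = 0.0908), without FLAG native replicates 1 and 3 (0.93, adjusted p = 0.0693) and without any 1 library other than FLAG native replicate 2 and WT crosslinked replicate 2 (adjusted p up to 0.126). It was also lost with a pseudocount of 8 (0.70, adjusted p = 0.0768) and in the fit without a mean-variance trend (adjusted p = 0.0602). Among the enzymes that build the chains, 15 of 16 were measured with a median of 0.08. The polymerase subunits Ext1 and Ext2 had −0.50 (SE 0.17; adjusted p = 0.155) and −0.14 (SE 0.11). Of the 15 measured modifying enzymes, with a median of −0.16, the sulfotransferase Ndst1 had 0.48 (SE 0.13; adjusted p = 0.109) and the 6-O-endosulfatases Sulf1 and Sulf2 had −0.02 and 0.29.

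The 9 other heparan sulfate proteoglycans had a median of −0.09, with Hspg2 (perlecan) at −0.09 and Agrn (agrin) at 0.04. Shedding and release, the group of Mmp14, had a median of 0.32 over 6 genes, and Notum, which releases glypicans, was not analysed here. The 11 cytoplasmic partners of syndecans had a median of −0.01, with 0.18 for Sdcbp (syntenin) and −0.01 for Cask, none of them meeting the unadjusted rule. The 16 ligands and co-receptors had a median of 0.27, with Fgf2 at 0.21, and the 7 chondroitin sulfate proteoglycans of the neural niche one of 0.39. The median over all genes was −0.03. The syndecan median, 0.63, therefore lay above those of all 7 groups, which hold 6 to 16 genes. It only describes 4 genes, chosen with earlier results known, and lies midway between Sdc3 (0.87) and Sdc1 (0.38).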

How the data were processed

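The data are 10 RIP-seq libraries of mouse NSC cultures. Per the labels and the methods, the authors trimmed reads with Cutadapt and Trimmomatic, mapped them to GRCm38 with HISAT2, counted them per GENCODE gene with featureCounts and normalised them (the methods name DESeq2, the labels limma). The deposited matrix holds log2 values for 15899 genes. They were used as deposited, although linear values had been assumed in the plan, and neither the reads per library nor counting error can be derived from them.

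FLAG and WT were compared with limma 3.58.1 (R 4.3.3; lmFit, eBayes with trend) within each protocol, over all libraries with the protocol as covariate, and in a 4-group fit for the difference between protocols. P-values were adjusted over all genes, and the steps were tested on simulated data with 200 changed genes. The members, the pathway and marker lists and the genes named from them were chosen with earlier results of these data known. Named genes were the 8 members, 12 list genes, called list genes and the 3 genes most like Sdc4 and Sdc3. Alternatives were pseudocounts of 1 and 8, a minimum mean linear value of 10, TMM, quantile normalisation, array weights, no trend, the replicate number as a block, 1 fit of 4 groups and each library left out. The removal of the exonic-share trend (20 bins), a random block, a crossed pairing and leaving out FLAG native replicates 1 and 3 were chosen after seeing the data. Deviations of crosslinked and native libraries of one genotype with the same number correlated in all 4 pairs (r = 0.18 and 0.15 in FLAG, 0.30 and 0.39 in WT), as did WT crosslinked replicate 1 and native replicate 3 (0.23), which differ in number. These deviations cancel within each group, so the values depend on each other and cannot decide whether the numbers mark shared cultures. The random block pairs the same numbers (consensus correlation 0.33). Annotation came from GENCODE M21 on GRCm38, read with Python 3.11.15 and pysam 0.24.0.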

Additional observations from a re-analysis of the deposited data

How the results depend on the processing

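No member was called in any comparison with the deposited values, and pseudocounts, TMM, quantile normalisation, the fit without a trend and the fit of 4 groups left it so, as did the low-value filter for the 6 members it kept (it removed Sdc1 and Gpc2). Array weights called 2 members higher in native conditions, Sdc3 (1.35, adjusted p = 0.00680, limma) and Sdc4 (2.36, adjusted p = 0.00674), among 1656 genes called higher and 1921 lower. Over all libraries they called 3, Sdc1 (0.70), Sdc3 (0.66) and Sdc4 (1.75), among 1105 higher and 964 lower. That fit rested mainly on FLAG crosslinked replicate 2 (weight 10.2) and WT crosslinked replicate 1 (9.02). FLAG native replicates 1 and 3 had weights of 0.12 and 0.16. Leaving out a library gave 0 to 2 members higher and 0 to 1 lower in native conditions and 0 to 2 higher over all libraries. The fits with called members also called many other genes: 1450 higher and 1710 lower in native conditions and 516 and 186 over all libraries without FLAG native replicate 2, and 182 and 219 without WT crosslinked replicate 2. All-library adjusted p-values of Sdc4 ran from 8.89e-05 to 0.212 over the alternatives. The cause was not tested.

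Same-numbered FLAG and WT libraries did not deviate together (r from −0.43 to −0.15). Deviations from a group mean cancel within each group, so these few dependent values cannot decide whether the numbers are pairs. The numbers were not taken as pairs of FLAG and WT in the main fits, as no label says that they are. With the replicate number as a block Sdc4 kept 1.57 (adjusted p = 0.175) and Sdc3 0.87 (adjusted p = 0.250) over all libraries, while genes called fell from 42 higher and 37 lower to 5 and 12. In native over crosslinked WT the block gave 115 genes higher and 27 lower against 2 and 4 (46 and 7 in the fit of 4 groups) and turned Sdc4 to 0.20. It changed no call of a member. The crossed pairing of the crosslinked libraries called 0 and 0.

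Several signs turned, all of values that were not called. Array weights gave −0.11 for Gpc2 over all libraries and 0.019 for Sdc2 in native over crosslinked WT. Without the exonic-share trend, Gpc6 was 0.015 in native conditions and 0.044 over all libraries, Gpc2 −0.016 over all libraries, and the difference between protocols 0.073 for Sdc2 and 0.035 for Gpc4. Without FLAG native replicates 1 and 3, native Sdc2 was 0.069 and Gpc2 −0.29, all-library Gpc2 −0.17 and Gpc6 0.0092, and the difference between protocols was 0.064 for Sdc1, 0.28 for Sdc2, −0.12 for Sdc3, −0.074 for Gpc1, −0.21 for Gpc2 and 0.092 for Gpc4. With single libraries left out, the crosslinked values ran from −0.14 to 0.63 for Gpc1, −0.19 to 0.025 for Gpc2, −0.54 to 0.19 for Gpc4 and −0.052 to 0.10 for Gpc6. Those of Gpc2 ran from −0.22 to 1.01 in native conditions and −0.16 to 0.51 over all libraries. The difference between protocols ran from −0.45 to 0.081 for Sdc1, −0.46 to 0.020 for Sdc2, −0.35 to 0.42 for Gpc1, −0.14 to 1.09 for Gpc2 and −0.61 to 0.11 for Gpc4. Native over crosslinked WT ran from −0.12 to 0.048 for Sdc2, −0.41 to 0.30 for Sdc4 and −0.093 to 0.67 for Gpc1.

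A group left with 1 library was assumed to vary like the others. Groups of 2 or 3 are too small for a test of outlying libraries. Merged 3′ UTR exons gave the same numbers of MRE matches for all 8 members with the ending of the methods, the only one run. The depth of single libraries is not given, which limits what can be said of low values such as those of Sdc1.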
